A study of Homo sapiens with 26 samples.

Results

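The comparison was of NCCIT cells that received siRNA against DNMT1 together with siRNA against DNMT3B (siD1+3B) with NCCIT cells that received control siRNA (siNTC-2). NCCIT is an established human embryonic carcinoma line. The members were the 4 arrays whose titles name these groups, 2 in each, of 26 arrays in 13 groups, and every gene with exactly 1 symbol in the platform annotation, each represented by its row of highest mean. That gave 18417 genes from a table of 33297 rows.

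All cells were transfected with the PepMute reagent, and RNA was hybridised to Affymetrix Human Gene 1.0 ST arrays, which probe many exons of each transcript. The groups used beside the 2 named above were siNTC-1, a second control siRNA group, siDNMT1 and siDNMT3B, each with siRNA against that gene alone, siD1+3A, with siRNA against DNMT1 and DNMT3A, and 3B+3L, with siRNA against DNMT3B and DNMT3L. No dose or time after transfection was given in the labels. siRNA lowers a transcript without deleting the gene, so each group is a partial depletion. Nothing in the labels ties the 2 arrays of a group to separate cultures. The p-values here thus reflect only how far duplicates spread, which may be a technical spread.

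DNMT1 copies DNA methylation onto the new strand after replication, whereas DNMT3B adds methylation to unmethylated sites. Methylation of CG dinucleotides at a promoter is associated with silencing, and germline genes with CG-rich promoters are among the best known genes silenced in this way. Embryonic carcinoma cells express DNMT3B at a high level. No methylation was measured in these samples, so all values below are transcript levels.

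Duplicate arrays correlated across genes at 0.9987 in siD1+3B and 0.9984 in siNTC-2. The first principal component, with 49.5% of the variance, placed the 8 arrays of siNTC-1, siDNMT1, siDNMT3B and siDNMT3L between -26.6 and -23.3, and the other 18 arrays, siD1+3B and siNTC-2 among them, between 3.40 and 20.2. No label names a batch. Between siNTC-2 and siNTC-1 8234 genes passed the threshold, an adjusted p of 0.05 in limma's moderated test. A difference of siD1+3B from siNTC-1 therefore also crosses these sets of arrays, and set and treatment cannot be told apart in it. It is given beside a result as a second reading, and a single siRNA is read against siNTC-1, the control on its own side.

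The DNMT1 transcript, the first siRNA target, read 8.99 and 8.97 (log2) in siD1+3B and 9.98 and 9.99 in siNTC-2. Both siD1+3B arrays lay below both controls, at 49.9% of the siNTC-2 level, a log2 difference of -1.0 ± 0.05 (standard error of the fit, n = 2 arrays per group, here and below), with an adjusted p of 3.5e-10 in limma's moderated test, the source of every adjusted p here. The DNMT3B transcript, the second target, read 11.28 in both siD1+3B arrays and 11.68 and 11.66 in siNTC-2. It fell less, by 0.39 ± 0.06 on the log2 scale, to 76.4% of siNTC-2 (adjusted p = 1.4e-04). DNMT3B fell by 0.99 with its siRNA alone, to 50.3% of siNTC-1, and the difference from control was 0.60 ± 0.09 smaller in size in siD1+3B than there (adjusted p = 1.0e-04). DNMT1 fell by 1.42 with its own siRNA alone, to 37.4% of siNTC-1, and the pair's difference was 0.41 ± 0.08 smaller in size (adjusted p = 0.0012). Thus both targets were reduced. The differences between pair and single siRNA contain siNTC-2 minus siNTC-1, which was -0.31 for DNMT3B and -0.14 for DNMT1 (adjusted p = 4.9e-04 and 0.048). Against siNTC-1, siD1+3B was at -0.70 for DNMT3B and -1.14 for DNMT1, still smaller in size than with each siRNA alone. Whether depletion was weaker in the pair was not tested apart from the controls. DNMT3A and DNMT3L, which were not targeted, differed from siNTC-2 by 0.05 ± 0.07 and -0.07 ± 0.12 (adjusted p = 0.67 and 0.75).

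**Figure D1:**
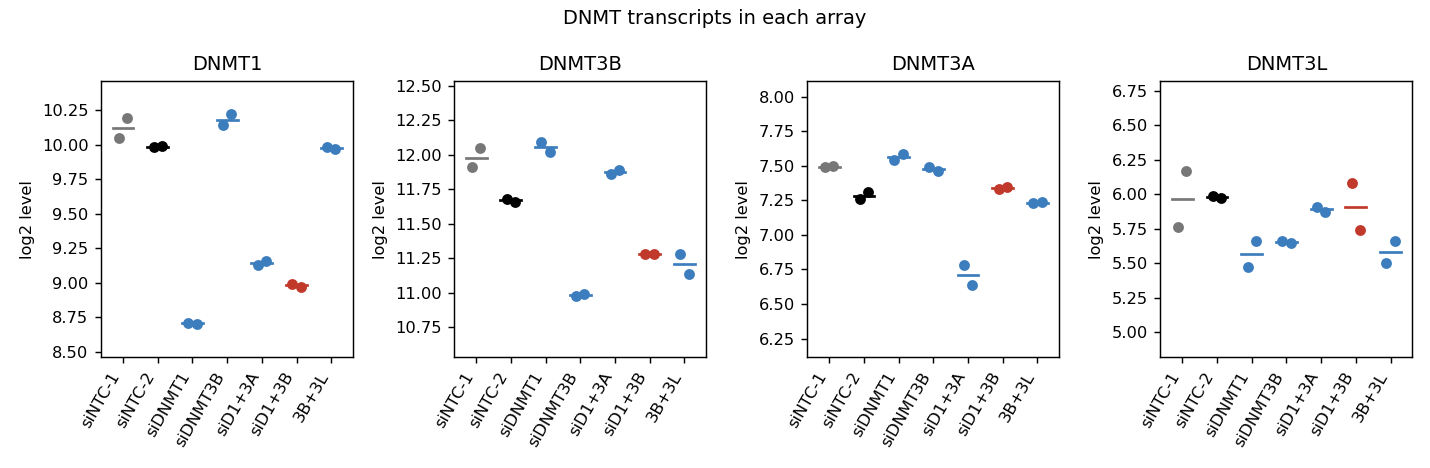
Deposited log2 levels of the 4 DNMT transcripts (vertical axes, of equal span, not starting at 0) in the 2 arrays of 7 groups, with a line at each group's mean. DNMT1 was near 9 in siD1+3B against near 10 in both controls, and DNMT3B in siD1+3B (11.28) lay above siDNMT3B alone (10.98 and 10.99) and below siNTC-2 (11.68 and 11.66).

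Against siNTC-2, 4599 of the 18417 genes passed the threshold (25.0%), of which 2156 rose (11.7%) and 2443 fell (13.3%). The median difference over all genes was 0.0018. A change of at least 1.5-fold was found for 486 genes, 169 of which rose (0.918% of all genes) and 317 fell (1.72%), and 24 rose and 60 fell at least 2-fold. Most calls were therefore small in size. The largest rises were of SNORD14E, VTRNA1-1, ZCCHC12, INSIG1, H3C11, SNORD14C, H1-5, VTRNA1-2, TNC and CLIC2, followed by RNU5B-1, HMGCS1, THY1, BZW1 and PDZD4. The largest falls were of INHBE, TRIB3, DDIT4, SESN2, HHIP, CHAC1, SLC7A5, SLC6A9, GDF15 and HTR1D, followed by LAMP3, PCK2, ALDH1L2, BEST1 and STK32A. With siNTC-1 as the control 7279 genes passed, 21.3% of all genes higher and 18.2% lower, and 1089 changed at least 1.5-fold, and with the mean of both controls 305 did. Of the 169 rises, 94 were also higher than siNTC-1 past the threshold, 28 were lower and 47 did not pass. Of the 317 falls, 99 were lower than siNTC-1, 88 were higher and 130 did not pass. The genes that moved at least 1.5-fold the same way against both controls were 53 that rose and 34 that fell.

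**Figure D2:**
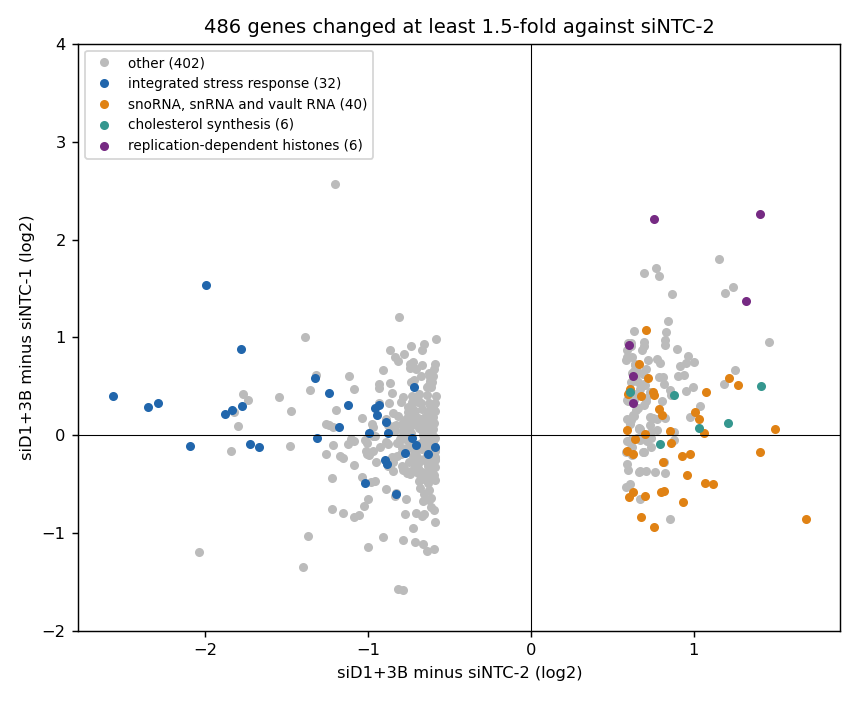
Each point is 1 of the 486 genes changed at least 1.5-fold against siNTC-2, with its log2 difference from siNTC-2 on the horizontal axis and from siNTC-1 on the vertical axis. The 32 stress response genes lie at the left, most of them near 0 on the vertical axis. The 40 small RNAs lie at the right on both sides of 0 and the 6 histone genes at the right above 0. The same siD1+3B arrays enter both axes.

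The falls were led by the integrated stress response, the programme driven by the transcription factor ATF4 when cells lack amino acids or accumulate unfolded protein. Of its 37 measured genes 34 fell, 32 of them at least 1.5-fold, and none rose, a share called of 91.9% against 25.0% of all genes, with a median of -0.96. INHBE, an activin subunit induced by this programme, read 6.07 and 6.16 in siD1+3B and 8.77 and 8.59 in siNTC-2, a difference of -2.57 ± 0.13 (adjusted p = 9.9e-11). TRIB3, a pseudokinase target of ATF4, read 6.65 and 6.43 against 8.90 and 8.89 (-2.35 ± 0.12, adjusted p = 1.0e-10). DDIT4, an inhibitor of mTORC1 signalling, read 7.18 and 7.23 against 9.46 and 9.54 (-2.29 ± 0.08, adjusted p = 1.4e-12). The siD1+3B arrays of each lay more than 2 log2 units below the controls. Other fallen members were the stress transcription factor DDIT3 (-1.73), the glutathione-degrading CHAC1 (-2.0), the amino acid transporters SLC7A5 (-1.88) and SLC7A11 (-1.32), SESN2 (-2.10), the secreted GDF15 (-1.83), the mitochondrial enzymes PCK2 (-1.78) and ALDH1L2 (-1.78), STC2 (-1.67), the serine synthesis enzyme PSAT1 (-0.95) and the tryptophan tRNA ligase WARS1 (-0.90). The ATF4 transcript itself, which is regulated largely at translation, differed by 0.0047 (adjusted p = 0.97).

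The level of this list in siD1+3B was near that of siNTC-1 and far from that of siNTC-2. The mean over its 37 genes was 8.84 in both siD1+3B arrays, 9.98 and 10.0 in siNTC-2, and 8.70 and 8.74 in siNTC-1. Against siNTC-1, 13 members were higher and 7 lower, with a median of 0.07. siNTC-2 itself exceeded siNTC-1 for 35 of the 37, with a median of 1.21, where 24.2% of all genes were higher and 20.5% lower. Read against siNTC-1, INHBE was 0.40 higher (adjusted p = 0.017), CHAC1 1.53 higher (adjusted p = 2.7e-08), PCK2 0.89 higher (adjusted p = 3.0e-07), and TRIB3 0.28 higher without passing the threshold (adjusted p = 0.060). SESN2 (-0.11), DDIT3 (-0.09), SLC7A11 (-0.03) and STC2 (-0.12) did not pass there (adjusted p = 0.33, 0.24, 0.65 and 0.23). Among the 9 groups on the side of siNTC-2 the level varied widely. It was 10.0 and 9.95 in 3B+3L, 9.64 and 9.63 in siDNMT3A, 9.69 and 9.72 in 3A+3B and 9.25 and 9.28 in siD1+3A+3B. It was close to siD1+3B in siD1+3A (8.93 and 8.96), 3A+3L (8.84 and 8.89) and 3A+3B+3L (8.78 in both). The part of the level of siNTC-2 in these falls was not tested.

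**Figure D3:**
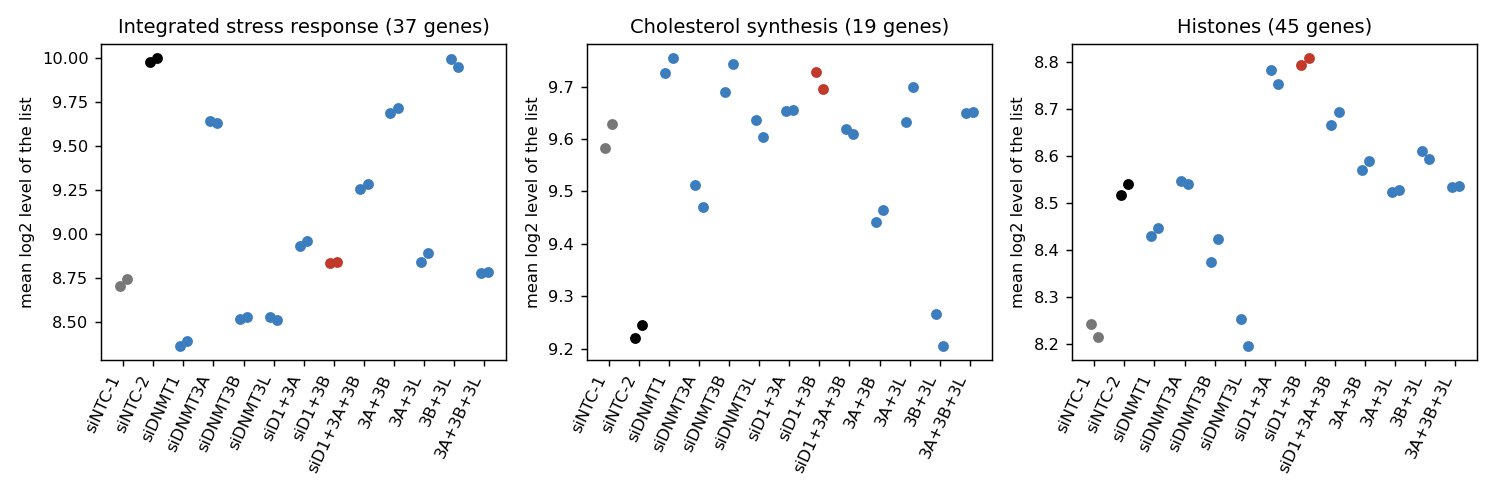
Mean log2 level of 3 gene lists in each of the 26 arrays, by group, with siD1+3B in red, siNTC-2 in black and siNTC-1 in grey (the vertical axes do not start at 0). siD1+3B was far below siNTC-2 and near siNTC-1 for the stress response, above siNTC-2 and close to siDNMT1 and siDNMT3B for cholesterol synthesis, and above both controls for the histones.

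Genes of cholesterol synthesis, an endoplasmic reticulum pathway under the control of SREBP2, rose together: 16 of 19 measured members rose, 6 of them at least 1.5-fold, and none fell (84.2% called, against 25.0% of all genes, median 0.31). INSIG1, which retains the SREBP complex in the endoplasmic reticulum and is itself a target, read 9.01 and 8.91 in siD1+3B and 7.45 and 7.65 in siNTC-2 (1.41 ± 0.08, adjusted p = 2.6e-10). HMGCS1, the synthase before the rate-limiting step, read 11.20 in both arrays against 9.97 and 10.0 (1.21 ± 0.05, adjusted p = 9.8e-12). The groups were separated for both genes, as for all but 1 of the 4599 genes that passed. SQLE, the squalene oxidising enzyme, rose by 1.03, the sterol oxidase MSMO1 by 0.88 and the isomerase IDI1 by 0.79. Against siNTC-1, 7 members were higher and 4 lower (median 0.07), and 12 were lower in siNTC-2 than in siNTC-1. INSIG1 was 0.50 above siNTC-1 (adjusted p = 3.8e-05) and MSMO1 0.41 above it (adjusted p = 5.9e-06), whereas HMGCS1 (0.12, adjusted p = 0.054), SQLE (0.07, adjusted p = 0.36) and IDI1 (-0.09, adjusted p = 0.33) did not pass there. The rise was not particular to this pair: in siD1+3A against siNTC-2, 15 of the 19 rose and none fell (median 0.34).

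Endoplasmic reticulum chaperones moved the other way from the stress list, with 12 of 19 risen and 2 fallen (73.7% called, against 25.0% of all genes, median 0.24). HSPA5, the main chaperone of this compartment, read 11.74 and 11.79 against 11.16 and 11.07 and rose by 0.65 ± 0.06 (adjusted p = 3.8e-07). SDF2L1 rose by 0.71 and the disulfide isomerase PDIA4 by 0.55. HERPUD1, a component of the degradation machinery that is also induced by ATF4, fell by 1.01 (adjusted p = 9.5e-10). XBP1 was the other member that fell, by 0.52 (adjusted p = 1.5e-04), but it was 0.24 above siNTC-1 (adjusted p = 0.030), and was named after its value was seen. Against siNTC-1, 8 members were higher and 5 lower. HSPA5 was at the level of siNTC-1 (-0.03, adjusted p = 0.74), while PDIA4 (0.40) and SDF2L1 (0.38) were above it (adjusted p = 2.3e-06 and 1.4e-04). In siD1+3A against siNTC-2, 12 of the 19 also rose and 2 fell (median 0.24).

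Small noncoding RNAs supplied the top rise and 5 of the 15 largest. Small nucleolar RNAs, which guide modification of ribosomal RNA, rose in 83 of 175 cases (47.4%, where 11.7% of all genes rose) and fell in 3, with a median of 0.23. Of the 20 genes annotated as small nuclear RNAs 17 rose and none fell (85% risen, median 0.59), and all 3 vault RNAs rose. SNORD14E, which lies in an intron of a heat shock protein gene, read 8.33 and 8.34 in siD1+3B and 6.66 and 6.64 in siNTC-2 (1.69 ± 0.13, adjusted p = 2.6e-08). VTRNA1-1, a vault RNA, read 9.92 and 10.24 against 8.73 and 8.43 (1.5 ± 0.14, adjusted p = 2.5e-07). RNU5B-1, a U5 RNA, rose by 1.22 ± 0.22 (adjusted p = 5.2e-04), with 1 control array at 8.29 and the other at 7.44. Against siNTC-1 the direction turned for the nucleolar RNAs, of which 28 were higher and 76 lower (median -0.18): SNORD14E differed by -0.86 (9.05 and 9.34 in siNTC-1, adjusted p = 3.5e-05). The nuclear RNAs kept a positive median there (0.23, 7 higher and 0 lower). VTRNA1-2 was also above siNTC-1 (0.52, adjusted p = 9.0e-07), and VTRNA1-1 did not pass there (0.06, adjusted p = 0.76). In siD1+3A against siNTC-2 the medians were 0.21 for the nucleolar, 0.65 for the nuclear and 0.95 for the vault RNAs. Copies of U5 and of SNORD14 are near-identical, so the split of signal between them is uncertain, and probes for such short RNAs can also detect the host transcript.

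Replication-dependent histone genes, which are normally transcribed in S phase, rose more often than they fell. Of 45 measured members 23 rose and 2 fell against siNTC-2 (55.6% called, against 25.0% of all genes, median 0.22). Against siNTC-1, 38 were higher and 1 lower (median 0.45), where 21.3% of all genes were higher and 18.2% lower. siNTC-2 itself was higher than siNTC-1 for 27 members and lower for 8 (median 0.32). In siD1+3A against siNTC-2, 20 members rose and 5 fell (median 0.17). Without the second siD1+3B array 16 members passed in place of 25. H3C11, an H3 gene, read 9.27 and 9.23 in siD1+3B and 7.82 and 7.86 in siNTC-2 (1.41 ± 0.11, adjusted p = 5.0e-08). The linker histone H1-5 read 5.63 and 6.01 against 4.46 and 4.53 (1.32 ± 0.12, adjusted p = 2.8e-07). H2BC14 rose by 0.60 and H1-2 by 0.55. All 4 genes were higher than siNTC-1 as well, by 2.26, 1.38, 0.92 and 0.89 in the order named. Histone genes have near-identical copies, so the attribution to single members is uncertain.

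DNA replication and mitosis genes gave mixed counts. Of 31 replication genes 9 rose and 5 fell against siNTC-2, a share called of 45.2% where 11.7% of all genes rose and 13.3% fell. Against siNTC-1, 5 were higher and 22 lower (median -0.30), where 21.3% of all genes were higher and 18.2% lower. siNTC-2 itself was higher than siNTC-1 for 4 members and lower for 22 (median -0.34). PCNA, the sliding clamp, rose by 0.46 and differed from siNTC-1 by -0.12 (adjusted p = 0.12), and RRM2, a ribonucleotide reductase subunit, rose by 0.40 and differed from siNTC-1 by -0.60 (adjusted p = 5.9e-08). Of 23 mitosis genes 9 rose and 2 fell (47.8% called), and 7 were higher and 5 lower than siNTC-1. TOP2A, a topoisomerase, rose by 0.37 but did not pass against siNTC-1 (0.13, adjusted p = 0.067), and CCNB1, a mitotic cyclin, rose by 0.35 and was 0.17 above siNTC-1 (adjusted p = 0.013).

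Germline genes changed little as a list. Of 35 measured germline and piRNA genes 5 rose and 1 fell, a share called of 17.1% against 25.0% of all genes, with a median of 0.07. The members that rose most were GTSF1 and MAEL, both factors of the piRNA pathway, and DPPA5, an RNA-binding protein of germ and embryonic stem cells. Their promoters are shown with that of DNMT1, since these are genes for which promoter methylation would be asked about. The sequences are the 250 bases before the RefSeq start in GRCh38.p14, 5′ to 3′ on the gene's strand, with CG dinucleotides in capitals.
GTSF1 (chr12:54473603-54473852, - strand): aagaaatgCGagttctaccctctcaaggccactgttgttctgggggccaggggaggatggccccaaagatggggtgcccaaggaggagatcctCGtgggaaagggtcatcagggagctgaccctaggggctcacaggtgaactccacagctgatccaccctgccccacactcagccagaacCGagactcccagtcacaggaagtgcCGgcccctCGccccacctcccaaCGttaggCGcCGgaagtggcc
MAEL (chr1:166975332-166975581, + strand): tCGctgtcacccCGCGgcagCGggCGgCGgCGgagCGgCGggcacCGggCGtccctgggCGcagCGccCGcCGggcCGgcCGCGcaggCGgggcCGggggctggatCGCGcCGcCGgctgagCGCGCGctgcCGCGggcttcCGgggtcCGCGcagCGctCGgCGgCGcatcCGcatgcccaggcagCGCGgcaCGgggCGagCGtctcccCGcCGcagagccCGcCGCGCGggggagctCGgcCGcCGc
DPPA5 (chr6:73354277-73354526, - strand): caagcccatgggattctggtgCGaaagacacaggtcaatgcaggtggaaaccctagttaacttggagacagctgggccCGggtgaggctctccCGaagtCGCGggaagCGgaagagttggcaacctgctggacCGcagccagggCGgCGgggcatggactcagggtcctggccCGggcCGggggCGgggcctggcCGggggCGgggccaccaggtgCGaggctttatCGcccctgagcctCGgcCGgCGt
DNMT1 (chr19:10194954-10195203, - strand): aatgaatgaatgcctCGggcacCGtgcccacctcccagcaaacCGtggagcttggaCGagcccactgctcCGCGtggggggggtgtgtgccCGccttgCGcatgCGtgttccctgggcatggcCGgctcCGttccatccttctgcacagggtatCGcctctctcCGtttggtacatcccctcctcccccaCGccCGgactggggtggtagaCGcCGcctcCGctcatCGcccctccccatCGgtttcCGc
The window of GTSF1 holds 8 CG dinucleotides, that of DPPA5 19, that of DNMT1 21 and that of MAEL 51. For comparison, the median over the 13770 tested protein-coding genes with an entry was 18.

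GTSF1 read 8.47 and 8.57 in siD1+3B and 7.67 and 7.64 in siNTC-2 (0.86 ± 0.08, adjusted p = 2.8e-07). MAEL read 6.17 and 6.37 against 5.70 and 5.46 (0.69 ± 0.11, adjusted p = 1.6e-04), and DPPA5 read 4.60 and 4.42 against 4.04 and 3.97 (0.50 ± 0.11, adjusted p = 0.0027). The groups did not overlap for any of them, as for nearly every gene that passed, and DPPA5 stayed near the dim end of the scale. All 3 were also higher than siNTC-1, by 1.44, 1.66 and 0.44. TEX15, which acts with the piRNA machinery, rose by 0.35 and was 0.65 above siNTC-1 (adjusted p = 2.4e-06). NANOS2 rose by 0.30 (adjusted p = 0.014) and PRDM1 fell by 0.42 (adjusted p = 0.0032), but neither passed against siNTC-1 (adjusted p = 0.72 and 0.13). NANOS2 did not pass without the second siD1+3B array or the second siNTC-2 array (adjusted p = 0.10 and 0.097), nor PRDM1 without the first array of either group (adjusted p = 0.068 for both).

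GTSF1 and MAEL had risen by 1.72 each with DNMT1 siRNA alone (adjusted p = 1.1e-10 and 8.6e-09), whereas with DNMT3B siRNA alone GTSF1 fell by 0.30 (adjusted p = 0.0094) and MAEL differed by 0.01 (adjusted p = 0.97). The pair's difference minus that with DNMT1 siRNA alone was -0.85 for GTSF1 and -1.03 for MAEL (adjusted p = 5.5e-05 and 2.5e-04), and minus that with DNMT3B siRNA alone it was 1.17 and 0.69 (adjusted p = 1.4e-06 and 0.0053). All such differences, here and below, contain siNTC-2 minus siNTC-1, whose part was not tested. Read against siNTC-1, the rise of MAEL in the pair given above was close to its rise with DNMT1 siRNA alone. H3C11, H1-5, CLIC2, ZFP57 and DPPA3 had the same order of the pair and DNMT3B siRNA alone. H3C11 rose by 2.67 with DNMT1 siRNA alone and did not pass with DNMT3B siRNA alone (0.12, adjusted p = 0.46). CLIC2, an intracellular chloride channel family gene on chromosome X, rose by 1.24 ± 0.12 in the pair (6.55 and 6.44 against 5.26 in both controls) and by 1.25 with DNMT1 siRNA alone. ZFP57, a zinc finger protein that maintains methylation at imprinted loci, rose by 0.62 and DPPA3, which opposes maintenance methylation, by 0.32 (adjusted p = 2.0e-04 and 6.0e-05). The pair exceeded DNMT3B siRNA alone for each of these 5 genes (differences of 1.29, 1.46, 1.01, 0.68 and 0.47, adjusted p = 2.1e-05, 1.1e-05, 5.7e-04, 0.0029 and 8.7e-05). The 5 genes were grouped here because they had this order, so these p-values are no separate support for it.

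A further group of rises was shared with both single depletions. Its genes were picked with their values known and are not a list that was counted or tested. PDZD4, a PDZ domain gene on chromosome X, read 8.64 and 8.70 in siD1+3B and 7.58 and 7.44 in siNTC-2 (1.16 ± 0.08, adjusted p = 1.7e-08). It rose by 1.69 with DNMT1 siRNA and by 1.60 with DNMT3B siRNA. THY1, a surface glycoprotein of neurons and fibroblasts, read 10.70 and 10.68 against 9.49 and 9.52 (1.19 ± 0.07, adjusted p = 1.4e-09), and rose by 1.1 and 1.62 in the single depletions. TNC, the matrix protein tenascin C, read 8.67 in both arrays against 7.45 and 7.39 (1.25 ± 0.06, adjusted p = 6.5e-11), with rises of 1.82 and 0.94. ZCCHC12, a zinc finger gene on chromosome X, had the largest rise of a protein-coding gene, 1.46 ± 0.07 (9.82 and 9.76 against 8.44 and 8.22, adjusted p = 1.2e-10), compared with 0.46 and 1.03. The rises of PDZD4, THY1, TNC and ZCCHC12 against siNTC-1 were 1.80, 1.45, 0.67 and 0.95, and all passed. CCND1, which encodes cyclin D1, and DUSP6, a phosphatase that limits ERK, rose by 0.83 and 0.95, and by 1.05 and 0.74 against siNTC-1. The adhesion molecule L1CAM, also on chromosome X, rose by 0.79 (adjusted p = 4.6e-05) and was 1.62 above siNTC-1. Among the 169 rises of at least 1.5-fold, 11 were on chromosome X (6.51%, against 3.77% of all genes tested). Of the 317 falls of that size 14 were on it (4.42%).

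**Figure D4:**
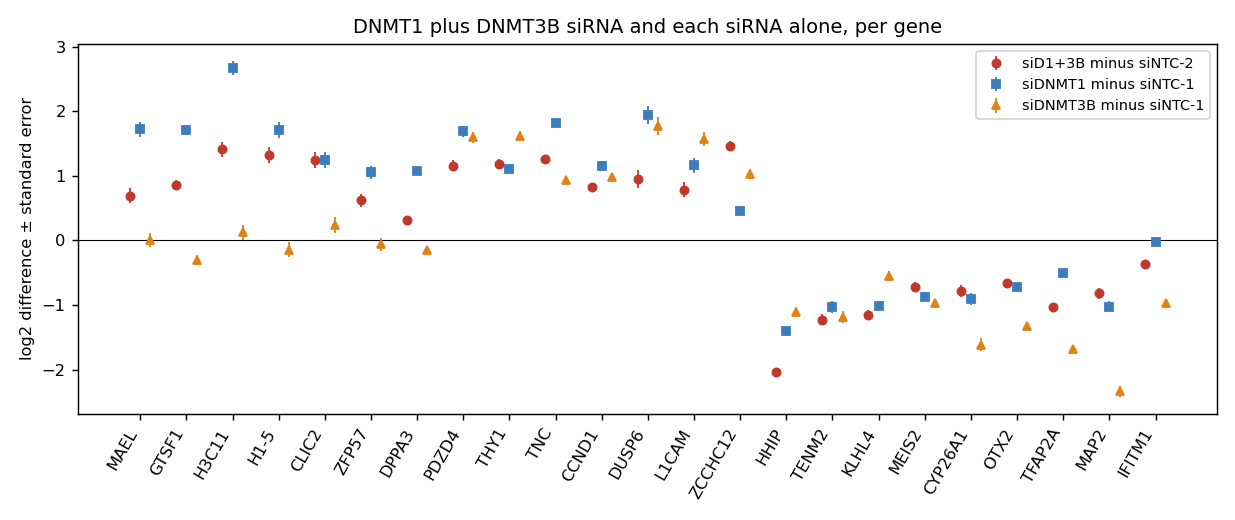
Log2 differences of 23 named genes with standard errors: siD1+3B minus siNTC-2 (circles), siDNMT1 minus siNTC-1 (squares) and siDNMT3B minus siNTC-1 (triangles). At the left, 7 genes from MAEL to DPPA3 were above 0 in the pair and with DNMT1 siRNA and near or below 0 or under 0.3 with DNMT3B siRNA, and genes from PDZD4 to ZCCHC12 were above 0 in all 3.

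Of the 34 genes that fell at least 1.5-fold against both controls, 7 are given here. They were picked from the falls with their values known and are not a list that was counted or tested. HHIP, a membrane antagonist of hedgehog ligands, read 5.27 and 5.20 in siD1+3B and 7.32 and 7.23 in siNTC-2, so that it was at 24.3% of control (-2.04 ± 0.07, adjusted p = 1.4e-12). It differed from siNTC-1 by -1.19 (adjusted p = 1.0e-09), and fell by 1.41 and 1.1 with DNMT1 and DNMT3B siRNA alone. SHISA3, an antagonist of Wnt receptors, read 8.25 and 8.30 against 9.58 and 9.79 (-1.40 ± 0.13, adjusted p = 4.5e-07). TIMP3, a matrix protease inhibitor, fell by 1.37, TENM2, a synaptic adhesion protein, by 1.22 and KLHL4, a kelch-like family gene on chromosome X, by 1.15. The transcription factors TFAP2A and ZEB2 fell by 1.03 and 1.06, with TFAP2A at 11.42 and 11.45 against 12.44 and 12.47. For all 7 of these genes both siD1+3B arrays were below both arrays of siNTC-2, and nearly every gene that passed was separated in this way. Each of the 7 was lower than siNTC-1 past the threshold, by a difference between -1.35 for SHISA3 and -0.73 for TFAP2A.

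In the list of retinoic acid and HOX genes 5 of 20 fell and 1 rose, a share called of 30% that is near the 25.0% of all genes, with a median of -0.02. Of 25 neural genes 5 rose and 7 fell (48% called), with a median of 0.03, so this list had no common direction. The retinoic acid degrading enzyme CYP26A1 fell by 0.78, the homeobox cofactor MEIS2 by 0.72 and the retinoic acid binding protein CRABP2 by 0.63. MAP2, a microtubule protein of neurons, fell by 0.82 (7.51 and 7.40 against 8.33 and 8.23, adjusted p = 1.6e-06), and OTX2, an anterior neuroectoderm factor that embryonic carcinoma cells also express, by 0.66 (10.26 and 10.31 against 10.95 in both, adjusted p = 1.9e-08). Each of these 5 was lower than siNTC-1, by differences from -0.49 (CRABP2) to -1.57 (MAP2). MAP2, OTX2, TFAP2A, CYP26A1 and IFITM1 fell more with DNMT3B siRNA alone (-2.33, -1.33, -1.68, -1.61 and -0.96) than in the pair, with differences of 1.51, 0.66, 0.65, 0.83 and 0.60 between the 2 (adjusted p = 1.9e-07, 3.7e-06, 7.1e-06, 3.4e-04 and 6.6e-06). Each of these differences contains siNTC-2 minus siNTC-1, which was -0.75 for MAP2 and of the opposite sign for TFAP2A. The DNMT3B transcript was also reduced less in the pair. The part of the controls and of this transcript in these differences was not tested. Among the neural genes that rose were L1CAM and the neurofilament gene INA (0.48).

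In the list of nodal, Wnt and hedgehog genes 4 of 26 rose and 4 fell, and the share called, 30.8%, was near the 25.0% of all genes. Beside HHIP and SHISA3, the hedgehog receptor and target PTCH1 fell by 0.69 (adjusted p = 1.5e-07), but it did not pass against siNTC-1 (-0.09, adjusted p = 0.23). The Wnt modulator SFRP2 rose by 0.58 and was 0.92 above siNTC-1. GDF3, a nodal-related ligand of pluripotent cells, rose by 0.71 (adjusted p = 3.9e-09) and differed from siNTC-1 by -0.36 (adjusted p = 6.6e-06). Of 23 ERK feedback and immediate early genes 7 rose and 2 fell (39.1% called): FOS rose by 0.61 and EGR1 by 0.49, whereas JUN fell by 0.69. Against siNTC-1 EGR1 was lower (-0.70, adjusted p = 1.7e-06), JUN was higher (0.43, adjusted p = 0.0086) and FOS did not pass (adjusted p = 0.12).

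Of 26 hypoxia and glycolysis genes 5 rose and 5 fell, a share called of 38.5% where 11.7% of all genes rose and 13.3% fell. VEGFA, the vascular growth factor, read 7.93 and 7.97 against 9.33 and 9.29 (-1.36 ± 0.08, adjusted p = 1.5e-09), the peptide hormone gene ADM fell by 0.83, AK4, a mitochondrial adenylate kinase, rose by 1.00 and LDHA by 0.39. VEGFA was 0.46 above siNTC-1 (adjusted p = 2.3e-04), AK4 was 0.50 above it (adjusted p = 1.1e-05), and ADM and LDHA did not pass there (adjusted p = 0.37 and 0.77). Of 34 matrix and adhesion genes 9 rose and 6 fell (44.1% called), with the laminin subunit LAMC1 up by 0.46 and 0.81 above siNTC-1. Metallothioneins, which bind zinc and copper, rose in 4 of 9 cases and none fell (44.4% called), with MT1X up by 0.77 and MT1E by 0.45, and 4 were higher than siNTC-1.

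Within the DNA methylation machinery, a list that holds both targets, 4 of 17 members rose and 5 fell (52.9% called, against 25.0% of all genes). Beside the targets, the 5-methylcytosine oxidase TET3 fell by 0.61 (adjusted p = 3.1e-05) but was 0.24 above siNTC-1 (adjusted p = 0.028). UHRF1, which guides DNMT1 to replicated DNA, rose by 0.41 (adjusted p = 0.0027) and did not pass against siNTC-1 (-0.08, adjusted p = 0.52). HELLS, a chromatin remodeller needed for methylation, rose by 0.30 and was 0.61 above siNTC-1 (adjusted p = 5.6e-07). Of 25 chromatin silencers 7 rose and 2 fell (36% called). ERVMER34-1, an envelope gene of retroviral origin, rose by 0.64 (adjusted p = 1.0e-04) and was 0.59 above siNTC-1. Of the 20 measured retrovirus-derived genes, ERVMER34-1 included, 3 rose and 2 fell, a share called of 25% against 25.0% of all genes. That list had 3 calls without the second siD1+3B array and 2 without the second siNTC-2 array, in place of 5.

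The remaining lists had shares called between 6.25% for the beta protocadherins and 39.1% for meiosis, against 25.0% of all genes. Rises and falls numbered 3 and 6 of 23 for meiosis, 2 and 0 of 24 for cancer-testis antigens, 0 and 1 of 16 for beta protocadherins, 2 and 3 of 20 for the p53 response, 1 and 3 of 25 for the interferon response, 3 and 4 of 23 for imprinted genes, and 5 and 1 of 24 for ribosomal proteins. These small counts depended on single arrays. Meiosis had 9 calls with all arrays, 2 and 5 without the first and second siD1+3B array and 3 without the second siNTC-2 array. The imprinted genes had 7 calls, 4 without either siD1+3B array and 3 without the first siNTC-2 array, and the ribosomal proteins had 6 and between 2 and 3 without any 1 of the 4 arrays. The interferon list went from 4 to 2 without the first siD1+3B array or either siNTC-2 array, the p53 list from 5 to 3 and the protocadherins from 1 to 2 without the first siD1+3B or the second siNTC-2 array, and the cancer-testis antigens from 2 to 1 without the second siD1+3B or the first siNTC-2 array. IFITM1, an interferon-induced membrane protein abundant in these cells, fell by 0.36 (adjusted p = 1.7e-05).

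Markers of the cells' identity changed in part. The levels of 10 measured pluripotency markers were between 9.31 and 12.7 in siD1+3B, with SOX2 at 12.3 and LIN28A at 12.1, whereas POU5F1 and NANOG were not among the rows with 1 symbol. Of the 10, 4 rose and 1 fell (50% called, against 25.0% of all genes). ZFP42 was up by 0.57 (adjusted p = 6.0e-07) but not past the threshold against siNTC-1 (-0.09, adjusted p = 0.20). SALL4 fell by 0.23 (adjusted p = 0.023), a call that was lost without any 1 of the 4 arrays. The 20 measured markers of endoderm, mesoderm, trophoblast and blood lay between 3.98 and 6.12 in siD1+3B, at the dim end of the scale, and between 3.93 and 6.33 in siNTC-2. The 5 neuroectoderm markers spanned 4.20 to 10.3 in siD1+3B and 4.38 to 10.9 in siNTC-2, and 3 of them fell and none rose (60% called, against 25.0% of all genes). These were OTX2, the brightest, SOX1 (-0.30, adjusted p = 0.016) and PAX6 (-0.30, adjusted p = 0.036), both transcription factors. SOX1 and PAX6 did not pass against siNTC-1 (adjusted p = 0.068 and 0.88). SOX1 did not pass without the first array of either group (adjusted p = 0.15 and 0.19) or with only these 4 arrays in the fit (adjusted p = 0.063), and PAX6 did not pass without any 1 of the 4 arrays. Of 6 fibroblast markers THY1, at 10.7, was the 1 that rose, and the other 5, COL1A1 among them at 6.28, lay between 4.30 and 6.28 in siD1+3B and between 4.23 and 6.14 in siNTC-2. HAND1, a trophoblast marker near the dim end, fell by 0.60 (adjusted p = 2.1e-05), and was named after its value was seen. The part of the cell composition in the results was not tested.

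DNMT1 siRNA alone and DNMT3B siRNA alone, read against siNTC-1, use arrays that are not in the comparison of siD1+3B with siNTC-2, so the genes chosen in the one can be looked up in the other. Of the 169 genes that rose at least 1.5-fold in the pair, 76 were higher with DNMT1 siRNA (45.0%, against 9.26% of all genes) and 4 were lower, and 73 were higher with DNMT3B siRNA (43.2%, against 11.8%) and 13 lower. Of the 317 that fell, 144 were lower with DNMT1 siRNA (45.4%, against 10.6%) and 15 higher, and 134 were lower with DNMT3B siRNA (42.3%, against 12.4%) and 27 higher. The genes that fell include the stress list, of which 27 fell with DNMT1 siRNA and 19 with DNMT3B siRNA and 1 rose with each, with medians of -0.38 and -0.22. The median level, as the mean over all arrays, was 8.75 for the 169 rises and 7.63 for the 317 falls, against 6.80 for all genes.

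The change in the pair also differed from that in each single depletion. The difference from control differed for 3228 genes (17.5%) between the pair and DNMT1 siRNA, of which 1503 were higher and 1725 lower in the pair, and for 3460 (18.8%) between the pair and DNMT3B siRNA, 1604 higher and 1856 lower. Each of these contrasts contains both control groups. TXNIP, an inhibitor of thioredoxin and glucose uptake, had the most negative such difference for DNMT3B siRNA. It read 11.02 and 10.96 in siD1+3B and 12.19 and 12.21 in siNTC-2 and fell by 1.2 ± 0.07, but rose by 1.97 with DNMT3B siRNA and by 0.58 with DNMT1 siRNA (differences of -3.17 and -1.78, adjusted p = 1.5e-12 and 9.0e-09). Its mean in siNTC-1 was 8.42, so siD1+3B was 2.57 above that control (adjusted p = 1.5e-13), and the direction turned. ARRDC4, a related arrestin-domain gene, fell by 1.39 in the pair against siNTC-2 and rose by 0.88 with DNMT3B siRNA (difference -2.26, adjusted p = 2.7e-08). It turned as well, to 1.01 above siNTC-1 (adjusted p = 9.55e-07), and did not pass against the mean of both controls (-0.19, adjusted p = 0.15).

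The comparison of siD1+3B with siD1+3A keeps DNMT1 siRNA and exchanges the DNMT3 partner, and no control enters the difference itself. Only 402 genes passed (2.18%), 146 higher and 256 lower in siD1+3B, and 18 differed at least 1.5-fold, 9 in each direction. The targets were among the 18: DNMT3A was 0.63 ± 0.07 higher (7.33 and 7.35 against 6.78 and 6.64, adjusted p = 1.2e-04) and DNMT3B differed by -0.60 ± 0.06 (11.28 in both against 11.86 and 11.89, adjusted p = 6.3e-05). DNMT1 did not pass between them (-0.17, adjusted p = 0.14). PDZD4 and ZCCHC12 were 0.79 higher, RFESD and L1CAM 0.73 and DHRS2, a short-chain dehydrogenase, 0.71. ACTG2, the enteric smooth muscle actin, was at -1.01 ± 0.08 (6.88 and 6.89 in siD1+3B against 7.87 and 7.92, adjusted p = 6.2e-06), followed by DDIT4 (-0.89), CDH9, a cadherin (-0.70), the small GTPase RAB15 (-0.69) and SPATA31G1 (-0.68). CDH9 did not pass without the first siD1+3A or the second siD1+3B array (adjusted p = 0.076 and 0.091), RFESD did not pass without the second siD1+3A array or either siD1+3B array, and SPATA31G1 did not pass without any 1 of the 4 arrays. With only these 4 arrays in the fit L1CAM (adjusted p = 0.063), RAB15, RFESD and SPATA31G1 (0.054 each) and CDH9 (0.11) did not pass. The count of 402 was 155 without the first siD1+3A array, 87 without the second, 166 without the first siD1+3B array, 103 without the second, and 5 with only these 4 arrays in the fit.

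Of the 18 genes, 13 passed in the same direction in siDNMT3B against siNTC-1, arrays that the comparison with siD1+3A does not use, and 0 passed in the opposite direction. Of all genes 11.8% were higher and 12.4% lower there. DNMT3B, a target of the siRNA in both comparisons, is 1 of the 13. The shared higher genes were 6 of 9: PDZD4, ZCCHC12, L1CAM, DHRS2, FBP1 and FAM111B. The shared lower genes were 7 of 9, with ACTG2 at -1.9 (adjusted p = 2.3e-11), CDH9 at -1.61 (adjusted p = 4.5e-08), PDE3A at -1.38, RAB15 at -1.08, GRAMD2B at -0.61, DDIT4 at -0.49 and DNMT3B itself. FBP1, FAM111B, PDE3A and GRAMD2B were named after their values were seen.

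**Figure D5:**
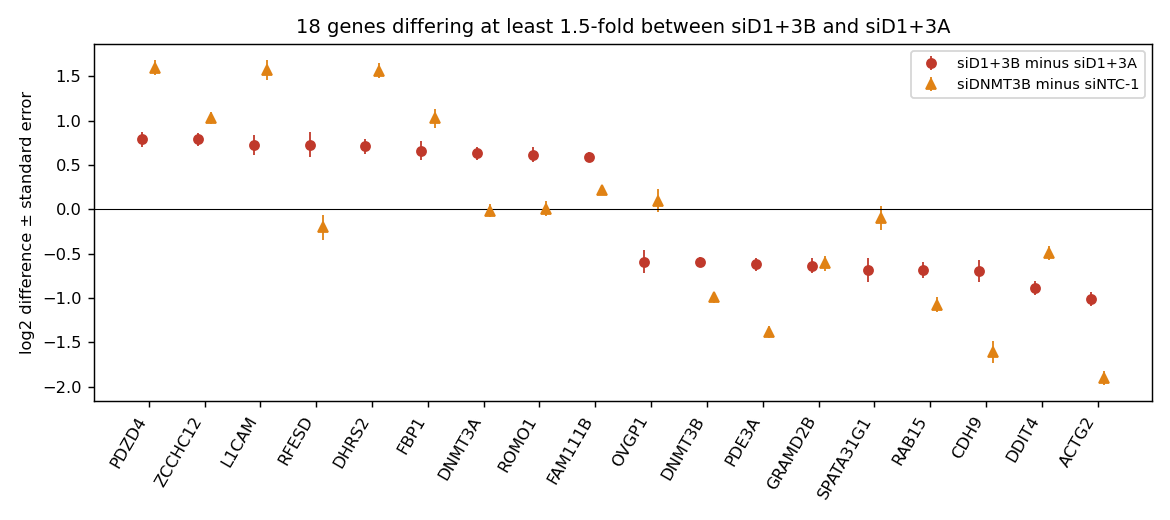
Log2 differences with standard errors of the 18 genes that differed at least 1.5-fold between siD1+3B and siD1+3A (circles), beside their difference between DNMT3B siRNA alone and siNTC-1 (triangles). RFESD, DNMT3A and ROMO1 among the higher genes and OVGP1 and SPATA31G1 among the lower did not pass with DNMT3B siRNA alone, and the other 13 passed on the same side of 0.

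The comparison with 3B+3L keeps DNMT3B siRNA and exchanges DNMT1 siRNA for DNMT3L siRNA, again with no control in the difference. DNMT3B did not pass between these groups (0.07 ± 0.06, adjusted p = 0.47), and DNMT1 differed by -1.0 ± 0.05 (adjusted p = 5.7e-10). DNMT3L, the target that was exchanged, did not pass (0.33 ± 0.12, adjusted p = 0.051). For 3739 genes the groups differed (20.3%), 1553 higher and 2186 lower in siD1+3B. The highest in siD1+3B were H3C11 (1.59), SNORD14E (1.34), H1-5 (1.31), INSIG1 (1.23) and RNU5D-1 (1.16), and the lowest were INHBE (-2.74), TRIB3 (-2.44), GDF15 (-2.26), DDIT4 (-2.22) and PCK2 (-2.12). Of the stress list 35 of 37 were lower and of the cholesterol list 16 of 19 higher in siD1+3B, where 11.9% of all genes were lower and 8.43% higher. GTSF1 was 1.01 and MAEL 0.64 higher (adjusted p = 6.2e-08 and 4.4e-04). L1CAM did not pass (-0.02, adjusted p = 0.92). ACTG2 was 0.46 higher in siD1+3B (adjusted p = 4.6e-04) although it fell against both controls, and CDH9 was 0.66 higher. The count was 2346 without the first 3B+3L array, 2435 without the first siD1+3B array and 2360 without the second.

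CG content was counted in the promoters of the genes that changed. Over 250 bases before the start, the median number of CG dinucleotides was 18 for the 13770 protein-coding genes with an entry, 16 for 105 of the 124 protein-coding genes that rose at least 1.5-fold and 19 for 242 of the 303 that fell. Fewer than 5 CG were found in 18.7%, 15.2% and 12% of these promoters. For the protein-coding genes that moved at least 1.5-fold against both controls the median was 9 for 45 that rose and 16.5 for 28 that fell, and 26.7% and 32.1% held fewer than 5. These are descriptions without a test.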

How the data were processed

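Transcript levels came from 26 Affymetrix Human Gene 1.0 ST arrays of NCCIT cells in 13 groups of 2, with 250 ng of total RNA labelled per array, per the labels' protocols. The authors deposited 1 log2 level per row of the array's annotation. Partek is the 1 tool named, per the submitters' processing notes, and its step and version are not stated there. How background was treated, probes summarised and arrays normalized is not given in the sources used here. Medians of the arrays were 6.28 to 6.33, so an overall shift would not be visible, and background compresses differences of dim genes. Of 33297 rows 19460 had 1 symbol, 1754 several and 12083 none, and 19429 matched RefSeq (GRCh38.p14) by gene number, with 0 renamed. For 769 genes with several rows the brightest was used, and no filter was applied.

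limma 3.58.1 (R 4.3.3) was fitted with 13 group means over all arrays (13 residual degrees of freedom), and p-values, two-sided, were adjusted by Benjamini-Hochberg over 18417 genes at a threshold of 0.05. The script was tested on simulated data. The 24 lists, the markers, the members and the tests were chosen with earlier results of these data known, so lists are described by counts and medians beside those of all genes. A gene of a list counts as risen or fallen only past the threshold. Named are the 15 largest rises and falls with both siD1+3B arrays beyond both siNTC-2 arrays, the 5 largest in each direction of each other comparison, the DNMT genes, and up to 5 list members with the smallest adjusted p plus those needed to describe a list. Alternatives were the other control or both, array weights, quantile normalization, leaving out the 40% of genes with the lowest mean, a prior that is trended and robust, a replicate block, every row with 1 symbol kept, only the groups compared, and each array left out. Replicate numbers did not pair arrays. A DNMT3B promoter is not shown, since the listed start lies inside the gene. Promoters on chromosome 8 were not printed.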

Additional observations from a re-analysis of the deposited data

Results flagged for a closer look

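The difference of the pair from its control was compared with that of each single siRNA from its own control by a contrast in limma, and the values here are the pair's log2 difference from siNTC-2 minus the single siRNA's from siNTC-1. Both control groups enter, and siNTC-2 and siNTC-1 lie on different sides of the first principal component, so their own difference is contained in each value. Its part was not tested.

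Against DNMT1 siRNA alone 3228 genes passed. The largest positive differences were of SNORD14E (1.77), SNORD14C (1.47), the U5 RNA gene RNU5B-1 (1.29), COX6C, a cytochrome c oxidase subunit (1.2), and MYCNOS, the antisense transcript of MYCN (1.19). RNU5B-1 did not pass with only the groups compared in the fit (adjusted p = 0.064). The largest negative ones were of DDIT4 (-2.23), INHBE (-2.19), TRIB3 (-1.94), GDF15 (-1.92) and TXNIP (-1.78).

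Against DNMT3B siRNA alone 3460 genes passed. The largest positive differences were of SNORD14E (1.74), MAP2 (1.51), HAPLN1, a hyaluronan link protein (1.47), the linker histone H1-5 (1.46) and SNORD14C (1.42). The largest negative ones were of TXNIP (-3.17), INHBE (-2.43), TRIB3 (-2.28), ARRDC4 (-2.26) and HAP1 (-2.10). siNTC-2 minus siNTC-1 was 3.77, 2.97, 2.64, 2.40 and 0.55 for these, and between -2.55 and 0.05 for the positive ones. All of the negative ones but HAP1 (means of 5.83 and 7.38) were higher in siD1+3B than in siDNMT3B, as TXNIP (10.99 and 10.39). SNORD14E and SNORD14C were lower in siD1+3B than in siDNMT3B, and MAP2, HAPLN1 and H1-5 higher.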

How the results depend on the processing

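With siNTC-1 alone as the control 7279 genes passed in place of 4599, and 1089 in place of 486 changed at least 1.5-fold, and with the mean of both controls 305 did. The differences that turned with siNTC-1 alone became ADM 0.10, ALDH1L2 0.30, ARRDC4 1.01, BEST1 0.42, CHAC1 1.53, DDIT4 0.33, DNMT3A -0.15, EGR1 -0.70, GDF15 0.26, GDF3 -0.36, HSPA5 -0.029, HTR1D 0.23, IDI1 -0.085, INHBE 0.40, JUN 0.43, LAMP3 0.10, LDHA -0.019, PAX6 0.023, PCK2 0.89, PCNA -0.12, PSAT1 0.20, RRM2 -0.60, SALL4 0.0086, SLC7A5 0.22, SNORD14C -0.18, SNORD14E -0.86, STK32A 0.36, TET3 0.24, TRIB3 0.28, TXNIP 2.57, UHRF1 -0.082, VEGFA 0.46, XBP1 0.24 and ZFP42 -0.093. A further 14 genes kept their direction with siNTC-1 alone but no longer passed. Among them were DDIT3 (-0.09), SESN2 (-0.11), SLC7A11 (-0.03), STC2 (-0.12) and SLC6A9 (-0.16), with adjusted p of 0.24, 0.33, 0.65, 0.23 and 0.13. With the mean of both controls DNMT3A (-0.050), EGR1 (-0.10), RRM2 (-0.10) and TXNIP (0.68) turned. Another 9 kept their direction there but no longer passed, CHAC1 among them (-0.23, adjusted p = 0.11). DNMT3L, which did not pass, ranged from -0.24 to 0.10 with 1 array left out. The cause of these turns was not tested. Between siD1+3B and siD1+3A, 402 genes became 1011 with array weights, 678 with a trended and robust prior, 699 without the dimmest genes, 5 with only these groups in the fit, which leaves fewer arrays for the spread, and 87 to 166 with 1 array left out. Against 3B+3L the count was 2346 to 2588 with 1 array left out. With only the groups compared in the fit, 1389 genes in place of 3228 differed from siDNMT1 alone and 1717 in place of 3460 from siDNMT3B alone. The replicate block gave 4556 and 486 genes against siNTC-2, 387 against siD1+3A, 3684 against 3B+3L, 3150 for siDNMT1 and 3364 for siDNMT3B, and changed none of the single-gene calls. The replicate numbers did not pair arrays: deviations of same-numbered siD1+3B and siNTC-2 arrays correlated at -0.0029. The DNMT1 and DNMT3B falls kept their direction and passed under every alternative run. Dim genes limit what can be called, since background compresses their differences.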
